A study of Mus musculus with 6 samples.

Results

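Cells of residual mammary tissue left after FGFR inhibition and drug withdrawal (the library labelled Dormant) were compared with cells of the mammary tumour from which such residues derive (the library labelled Primary). The members were the cells of these libraries with 500 or more UMIs (unique molecular identifiers, each a counted transcript molecule), 200 or more genes, and no more than 20% of UMIs from mitochondrial genes. There were 3276 such cells in Dormant and 4328 in Primary, 7604 in all, out of 18293 cells that passed the same limits in the 4 libraries of the tumour-stage table. Both libraries came from transplanted tumours in the mammary gland of FVB mice, described as FVB.rGH-Luc-GFP, a strain that carries a luciferase and GFP reporter. The genotype was given as MMTV-Wnt1/iFGRR1 for Dormant and MMTV-Wnt1/iFGRR2 for Primary. The last digit of that label rises by 1 from sample to sample across the series, so it was not read as a difference in receptor. The MMTV promoter drives the Wnt1 transgene mainly in mammary epithelium, and the B/B homodimerizer, injected every 3 days while tumours grew, joins and activates the engineered FGF receptor. Dormant mice were 10 to 12 weeks old and their tumours had regressed during 14 days of the FGFR inhibitor NVP-BGJ398 followed by 14 days without it. Primary mice were 8 to 10 weeks old, and their tissue was taken as tumour that had not been given the inhibitor. Both tissues were dissociated, frozen, thawed and sorted for live cells by DAPI exclusion before droplet capture with version 2 of the 3′ kit. How many animals went into a library was not given, and there was 1 library on each side, so each difference compares 2 libraries and every interval covers counting error only.

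Wnt1 acts on mammary basal and luminal progenitor cells through beta-catenin, and FGF receptors act through the MAPK cascade, whose output includes the Etv transcription factors and the Dusp phosphatases that feed back on it. Luminal cells line the ducts and include hormone-sensing and milk-producing branches, while basal (myoepithelial) cells surround them, contract during lactation and carry keratins 5 and 14. Tumour cells that persist after targeted therapy are known for leaving the cell cycle, and immune cells around them can be the source of interferon, which acts on neighbouring cells through their interferon receptors.

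Dormant held 14185689 UMIs in 3541 deposited cells and Primary 28138696 UMIs in 4925. After removal of predicted doublets (droplets with more than 1 cell) 3190 Dormant and 4178 Primary cells were used, with medians of 2738.5 and 5709.5 UMIs per cell. The libraries shared 23 cell barcodes, 0.702% of the Dormant and 0.531% of the Primary cells kept. Cells were clustered and each cluster was called like a cell type from a fixed set of markers. Luminal-like cells made up 3.26% of Dormant (104 cells, 95% binomial interval 2.67 to 3.94) and 38.9% of Primary (1625 cells, 37.4 to 40.4). Basal-like cells made up 4.86% (155 cells) and 9.91% (414 cells), but 3.79% and 3.11% with a gate on fixed markers in place of clusters, which turns the direction. Macrophage- or monocyte-like cells were 6.43% of Dormant (205 cells) and 29.7% of Primary (1239 cells). Luminal-like and macrophage- or monocyte-like cells together were thus the larger part of Primary and the smaller part of Dormant. T-like cells took 39.6% of Dormant (1262 cells) against 15.8% of Primary (662 cells), and NK-like cells 17.9% (572 cells) against 1.27% (53 cells). Dendritic-like cells were 4.80% (153 cells) and 1.68% (70 cells). These 6 classes had at least 50 cells on each side and were compared gene by gene. Fibroblast-like cells (285 and 3), plasma-like cells (273 and 0 of 4178, which allows a share of up to 0.0718%) and plasmacytoid dendritic-like cells (124 and 19) were nearly all from Dormant and were not compared. The eGFP transcript was seen in 76.9% of luminal-like Dormant cells and 99.8% of those in Primary, and in 89.7% and 99.5% of basal-like cells. It was also seen in 1.19% and 4.53% of T-like cells, which should lack it. In NK-like cells the shares were 1.22% and 3.77%, in macrophage- or monocyte-like cells 3.41% and 11.2%, and in dendritic-like cells 6.54% and 15.7%. Of the 11 endothelial-like Primary cells 45.5% had it. An eGFP UMI alone therefore does not mark a cell as epithelial.

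Each class also held cells with transcripts of another lineage, and the kind of lineage differed between the libraries. T cell receptor and CD3 genes (at least 2 of 6) were seen in 29.8% of luminal-like, 14.8% of basal-like, 30.7% of dendritic-like and 12.2% of macrophage- or monocyte-like Dormant cells, against 0.615%, 1.21%, 1.43% and 1.05% in Primary. Macrophage genes (at least 3 of 6) were seen in 14.8% of luminal-like, 17.6% of basal-like and 5.74% of T-like Primary cells, against 1.92%, 0% and 0.317% in Dormant. Both patterns followed the most abundant immune type of the library. In luminal-like cells the summed level of 10 T markers was 318 CPM (UMIs of a gene scaled to the class total) in Dormant and 18.9 in Primary, with 7 of the 10 higher past 2-fold. Whether these cells are doublets, cells in contact or cells that took up free RNA was not tested. The gene counts of each class below are given with and without them, as are several lists and genes.

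**Figure D1:**
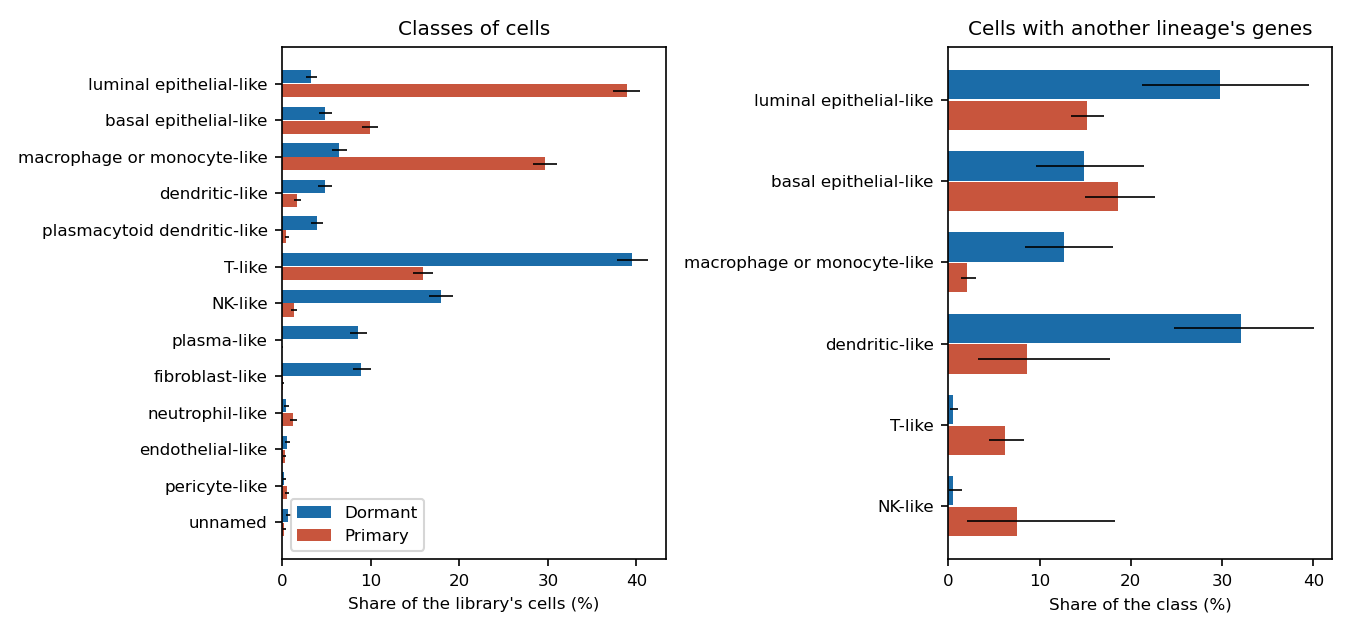
Left, share of each library's cells in each class with 95% binomial intervals; right, share of each class's cells that carried another lineage's genes. Luminal-like cells fall from 38.9% of Primary to 3.26% of Dormant while T-like cells go from 15.8% to 39.6%, and mixed cells were 29.8% of luminal-like Dormant cells.

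For each gene the UMIs of a class were summed per library, and a gene was called higher or lower in Dormant where the whole exact Poisson interval of the ratio lay beyond 2-fold. Among luminal-like cells 412 of 10709 genes were higher (3.85%) and 205 lower (1.91%). Basal-like cells had 452 of 9070 genes higher (4.98%) and 316 lower (3.48%). Macrophage- or monocyte-like cells had 354 of 9461 higher (3.74%) and 110 lower (1.16%). The T-like class, with the most Dormant UMIs, had 199 of 8497 genes higher (2.34%) and 193 lower (2.27%). Dendritic-like cells had 152 of 5621 genes higher (2.7%) and 35 lower (0.623%), and NK-like cells 62 of 5774 higher (1.07%) and 32 lower (0.554%). Most genes of every class therefore lay within 2-fold or could not be told from it at this depth. Without the mixed cells the counts became 302 higher (2.95%) and 146 lower (1.43%) in luminal-like cells, and 365 (4.48%) and 291 (3.57%) in basal-like cells. They became 305 (3.27%) and 109 (1.17%) in macrophage- or monocyte-like cells and 82 (1.93%) and 30 (0.705%) in dendritic-like cells. In T-like cells they became 189 (2.25%) and 186 (2.22%), and in NK-like cells 41 (0.717%) and 31 (0.542%). Of the called genes, 190 of the 412 higher in luminal-like cells were over 5-fold more abundant in another Dormant class, so free RNA or carried-over cells could have supplied their counts. The same held for 118 of 452 in basal-like and 129 of 354 in macrophage- or monocyte-like cells, and for 58 of 152 in dendritic-like, 52 of 199 in T-like and 10 of 62 in NK-like cells.

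**Figure D2:**
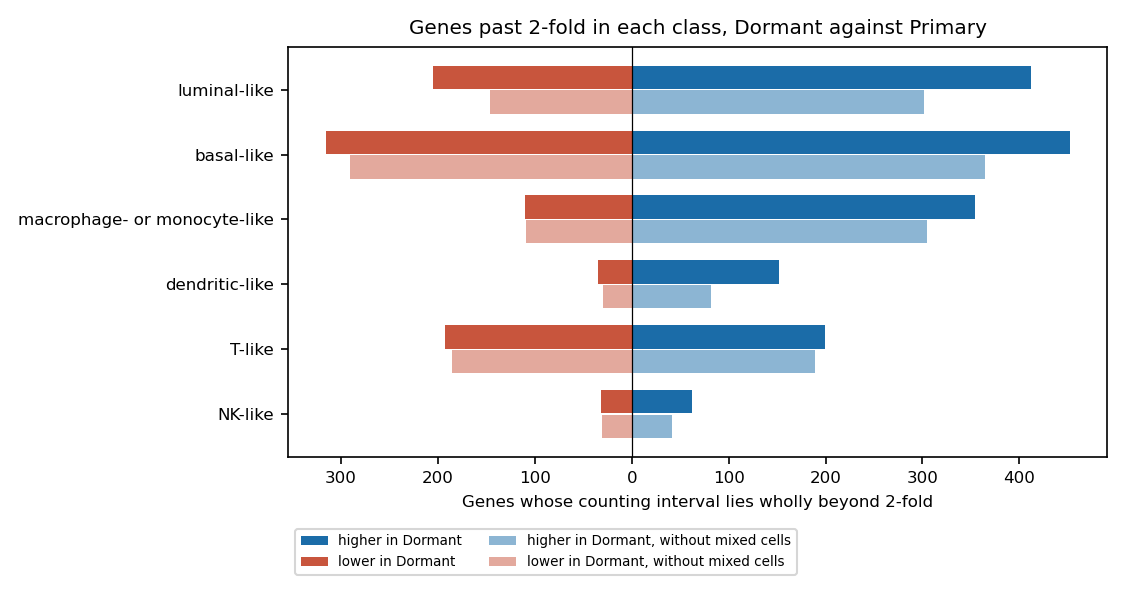
Genes higher and lower in Dormant past 2-fold in each of the 6 classes, with all cells and without cells that carried another lineage's genes. Basal-like cells had 452 higher and 316 lower, NK-like cells 62 and 32, and dendritic-like cells went from 152 higher to 82 without the mixed cells.

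Luminal-like cells of the libraries were drawn from different clusters. Cluster 3 held 60 of the 104 Dormant and 1302 of the 1625 Primary cells, a cycling cluster held 5 and 199, and cluster 26, led by Calca, Ptn, Cited1 and Cxcl15, held 28 Dormant cells and no Primary cell. Only 8 of these 28 cells (28.6%) had an eGFP UMI. Values are therefore given for all luminal-like cells, for the 50 Dormant and 1374 Primary cells with eGFP and no other lineage's genes, and for cluster 3 alone. Cluster 3 values include mixed cells unless stated. Only 35 of its 60 Dormant cells, and 1130 of its 1302 Primary cells, carried no other lineage's genes. Among those cells 216 of 9586 genes were higher and 123 lower. Within cluster 3, 329 of 10055 genes were higher (3.27%) and 197 lower (1.96%). In the eGFP cells that were not mixed, 221 were higher (2.17%) and 126 lower (1.24%).

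Several cell cycle inhibitors and targets of the p53 tumour suppressor were higher in the residual luminal-like cells. Cdkn1a (chr17:29090976-29100727, plus strand, mm10), which encodes the cyclin-dependent kinase inhibitor p21, stood at 595 CPM in Dormant (95% Poisson interval 551 to 641) and 63.6 CPM in Primary (58.9 to 68.6), a log2 ratio of 3.23 (3.07 to 3.38). The ratio was 3.46 in the eGFP cells that were not mixed and 3.14 in cluster 3. After each cell was thinned to 1000 UMIs, 45.2% of Dormant and 6.13% of Primary luminal-like cells still had a Cdkn1a UMI (87.5% and 18.3% before), while in NK-like cells the thinned shares were 15.6% and 0 of 50 cells, which allows up to 6.0%. Cdkn1a UMIs were thus not confined to a few Dormant cells. Full depth was unequal, with medians of 9289 and 5601 UMIs per cell. The thinned Dormant share of 45.2% (interval 35.4 to 55.3) is the one at equal depth. Cdkn2a, the locus of the p16 and p19ARF proteins, was at 77.5 and 11.2 CPM (log2 2.80, interval 2.38 to 3.21). Its neighbour Cdkn2b, which encodes p15, was at 16.5 and 3.40 CPM (2.30). Phlda3, a p53 target that restrains AKT, was at 192 and 29.2 CPM (2.71, interval 2.46 to 2.97). Cdkn1a, Cdkn2a and Phlda3 kept the call in cluster 3, without mixed cells and in the eGFP cells that were not mixed, and Cdkn2b missed it without mixed cells (2.18).

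Other genes of the p53 list were called in the same direction. Of 24 genes listed, 23 had enough UMIs, and 10 of these were higher and none lower, a share well above the 3.85% of all genes tested. Their median log2 ratio was 1.38, beside -0.03 for all genes. Without mixed cells 7 of 22 were higher (median 1.27), in cluster 3 it was 9 of 22 (1.16) and in the eGFP cells that were not mixed 9 of 22 (1.5). Trp53inp1, a p53-induced nuclear protein, was at 92.3 and 19.2 CPM (2.27), and Ccng1, which encodes cyclin G1, at 120 and 30.3 CPM (1.99). Zmat3, an RNA-binding p53 target, was at 52.3 and 12.6 CPM (2.06), and Sesn2, a stress-induced inhibitor of mTORC1 signalling, at 31.4 and 5.29 CPM (2.57). Pmaip1, which encodes the pro-apoptotic protein Noxa, was at 47.0 and 2.65 CPM (4.14, interval 3.47 to 4.86). Mdm2, the ubiquitin ligase that degrades p53, was at 70.5 and 26.1 CPM (1.44, interval 1.06 to 1.80). It missed the call without mixed cells (1.40) and in cluster 3 (1.38) and kept it in the eGFP cells that were not mixed (1.60). Of 21 cell cycle inhibitors and quiescence genes, 6 were higher and none lower (median 0.89), and 7 of 21 in cluster 3. Tob2, an antiproliferative factor that binds the mRNA deadenylation complex, was among them at 125 and 35.0 CPM (1.85).

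Hypoxia and glycolysis genes lay on the opposite side. None of 29 was higher and 7 were lower, against 1.91% of all genes, with a median log2 ratio of -0.95. Without mixed cells 6 were lower (-1.03), and in cluster 3 again 6 (-1.22). Bnip3 (chr7:138890836-138909519, minus strand), a mitophagy receptor induced by HIF-1, gave 6 UMIs in Dormant and 680 in Primary, 5.23 and 64.3 CPM, a log2 ratio of -3.51 (interval -5.07 to -2.49). Egln3, the oxygen-sensing prolyl hydroxylase that HIF itself induces, had a ratio of -2.54. The glycolytic enzymes were lower by less: Pgk1 stood at 145 and 433 CPM (-1.57), Eno1 at 383 and 1030 CPM (-1.43) and Aldoa at 395 and 935 CPM (-1.24). These 5 genes kept their call in cluster 3 and in the eGFP cells that were not mixed, while Aldoa missed it (-1.12) in the set of all cells without the mixed ones. Ero1l, an oxidase of the endoplasmic reticulum (-1.72), and Car12, a carbonic anhydrase (-1.63), also passed in all cells but missed the call in cluster 3 (-1.57 and -1.25).

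Part of the histone transcripts, which peak in S phase or are released on differentiation, were lower in residual luminal-like cells. Among 57 core and linker histone genes 10 were lower and none higher, and the median log2 ratio was -1.65, or -1.20 with genes at 0 UMIs set to their least difference. The share of all genes that were lower was 1.91%, and 1.96% within cluster 3. Hist1h2ap was at 57.5 and 466 CPM (-3.01) and was seen in 11 Dormant and 515 Primary cells. Hist1h2ac gave no UMI in Dormant and 425 in Primary, at least 15.4-fold lower. The cycling cluster held 5 of 104 Dormant and 199 of 1625 Primary luminal-like cells. Within cluster 3 the count was 10 lower and 1 higher of 42 (bounded median -0.62), with Hist1h2ap at -2.74. Some histone genes were thus also lower outside the cycling cluster. In cluster 3 without mixed cells 5 of 35 were lower and none higher, with a median of -1.77. Its bounded median was -0.039, the same as the median of all genes there. The linker histones Hist1h1c (74.9 and 307 CPM, -2.03) and Hist1h1e (-3.04) were lower as well. Without mixed cells 4 of 50 histone genes were lower (median -1.12, bounded -0.54), and Hist1h1e missed the call in the eGFP cells that were not mixed (-2.03).

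FGF and Wnt feedback genes changed in both directions. Of 20 FGF and MAPK feedback genes 3 were higher and 4 lower (median -0.42), and in cluster 3 the count was 2 and 5 of 18 (median -0.79). Without mixed cells it was 2 and 1 of 19 (-0.32). In the eGFP cells that were not mixed it was 2 and 0 of 18 (-0.49), and in cluster 3 without mixed cells 2 and 0 of 18 (-0.76). Most of the lower calls were thus not made without mixed cells. Beside them, 3.85% of all genes were higher and 1.91% lower, and 3.27% and 1.96% in cluster 3. Etv4 and Etv5, ETS transcription factors induced by FGF signalling, had ratios of -2.44 and -2.28. Dusp6, the ERK phosphatase most often read as an FGF output, was at 104 and 334 CPM (-1.68). Dusp5, another ERK phosphatase, was higher at 150 against 51.9 CPM (1.53). In the eGFP cells that were not mixed, Dusp5 kept its call (1.95) while Etv4 (-2.73, interval -8.62 to -0.81), Etv5 (-1.31) and Dusp6 (-1.11) did not, with 1 and 11 Dormant UMIs behind the Etv values. Fgfr2, an FGF receptor, gave 31 Dormant and 2 Primary UMIs, yet 0 and 1 within cluster 3. Of 23 Wnt ligand and feedback genes 3 were higher and 3 lower, against 3 and 1 of 22 without mixed cells and 1 and 3 of 21 in cluster 3. Wnt5b, a non-canonical ligand, was at 63.6 and 12.0 CPM (2.41). Lower members were Nkd1, an antagonist of dishevelled, with 0 and 298 UMIs (at least 10.8-fold lower), Znrf3, a ligase that removes Frizzled (-2.18), and the R-spondin receptor Lgr4 (-2.17). Znrf3 missed the call without mixed cells (3 and 208 UMIs, -2.26, interval -4.77 to -0.92) and in cluster 3 (-2.14) and had 1 and 208 UMIs in the eGFP cells that were not mixed (-3.05, interval -8.94 to -1.13, called). Lgr4 was called in cluster 3 (-2.53) and missed the call without mixed cells (-1.85) and in the eGFP cells that were not mixed (-1.57). Rspo1, the secreted agonist of that receptor family, was not on the list and was higher, at 55.7 and 0.851 CPM (5.97). Igf1r, the IGF-1 receptor, was at 6.97 and 51.6 CPM (-2.80), and the neural crest and stem cell factor Sox10 had a ratio of -1.97.

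Several Notch genes were higher in luminal-like cells. Notch receptors are cut when bound by Jag or Dll ligands on a neighbouring cell, and Hes and Hey repressors are their common targets. Of 18 measured Notch genes 5 were higher and none lower in luminal-like cells (median 0.81), against 3.85% of all genes higher, 4 of 16 without mixed cells (0.72) and 4 of 17 in cluster 3 (0.59). In the eGFP cells that were not mixed it was 3 of 16 (0.96). Among basal-like cells it was 1 of 16 (0.07), where 4.98% of all genes were higher. The receptor Notch3 was at 36.6 and 12.5 CPM (1.56, interval 1.01 to 2.06) and missed the call in cluster 3 (1.21). Notch1 was at 71.4 and 28.5 CPM (1.33, interval 0.95 to 1.68) and was called in cluster 3 (1.63) and in the eGFP cells that were not mixed (1.72), but not over the class. Hey2 had 18 and 4 UMIs (5.24, interval 3.77 to 7.4), and 18 and 3 in cluster 3 (5.76, interval 4.17 to 8.35). Hes1 was at 242 and 101 CPM (1.26, interval 1.06 to 1.45), with 1.22 in cluster 3 and 1.17 in the eGFP cells that were not mixed, neither called. Nrarp, a feedback inhibitor of Notch, was at 30.5 and 5.67 CPM (2.43), although another Dormant class held over 5 times that level. The basal-like member was the ligand Dll1, at 81.8 and 19.7 CPM (2.05), with 0 and 56 UMIs in cluster 11. Whether the luminal-like and basal-like classes differed in Notch genes was not tested.

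Luminal branch genes separated into a part carried by cluster 26 and a part that was not. Of 17 hormone-sensing genes 12 were higher and 1 lower in all luminal-like cells (median 3.52), but within cluster 3 it was 4 and 1 of 10 (median 0.31). The shares of all genes were 3.85% higher and 1.91% lower, and 3.27% and 1.96% within cluster 3. Cited1, a co-activator of the oestrogen receptor, had 287 Dormant and 2 Primary UMIs, and 0 and 1 within cluster 3. Foxa1, the pioneer factor of that receptor, had 55 and 0 UMIs, at least 169-fold higher. Areg, the EGF receptor ligand that relays oestrogen, had a ratio of 4.85 overall and 1.93 within cluster 3, where it kept the call. Of 26 milk and luminal progenitor genes 3 were higher and 8 lower (median -0.45). Csn3, which encodes kappa-casein, was at 2738 and 9886 CPM (-1.85), and Spp1, which encodes osteopontin, at 1003 and 4210 CPM (-2.07). Lcn2, an iron-sequestering lipocalin, was at 1569 and 5340 CPM (-1.77), and Xbp1, a factor of secretory cells, at 279 and 1239 CPM (-2.15). Thrsp, a lipogenic regulator, was at 89.7 and 464 CPM (-2.36). All 5 were lower in cluster 3 and in the eGFP cells that were not mixed as well. Btn1a1, which encodes butyrophilin of the milk fat globule, went the other way at 42.7 and 4.35 CPM (3.29).

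Other large differences in luminal-like cells by the naming rule are given singly. Hp, which encodes haptoglobin, gave 533 and 26 UMIs, 464 and 2.46 CPM (log2 7.54, interval 6.99 to 8.19), and 7.52 within cluster 3. Sncg, which encodes gamma-synuclein, had 72 and 0 UMIs, at least 221-fold higher. Cbr2, a carbonyl reductase (5.84), Fcgbp, a mucin-like protein (5.66), and the phosphodiesterase subunit Pde6a (144 and 10.7 CPM, 3.75) kept their call in the eGFP cells that were not mixed. Tmem158 (3.37) and the serine protease Tmprss2 (2.75) did not, at 1.41 and 1.10, and lay at 0.17 and 0.37 in cluster 3. On the lower side Sema3b, a secreted semaphorin, had 0 and 547 UMIs, at least 19.8-fold lower. The secretoglobin Scgb2b27 had 3 and 1518 UMIs (-5.56, interval -8.06 to -4.23), the secreted carbonic anhydrase Car6 a ratio of -4.60 and the collagen lysyl hydroxylase Plod1 -4.13. Cpd, a carboxypeptidase (-3.16), Acsl4, a fatty acid ligase tied to ferroptosis (-3.03), and Crispld2 (-4.12) were also lower in each of the luminal-like subsets.

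Part of the heat shock and interferon genes were higher. Of 47 heat shock and co-chaperone genes 9 were higher and none lower (10 of 46 in cluster 3), and Hsp90aa1, the inducible HSP90, was at 1002 and 373 CPM (1.43). For these lists, 3.85% of all genes were higher and 1.91% lower, and 3.27% and 1.96% in cluster 3. Of 28 immediate early and AP-1 genes 8 were higher (median 0.56), against 5 higher and 1 lower in cluster 3 (0.10). Interferon-stimulated genes depended on the cluster: 9 of 48 were higher and 1 lower overall (median 0.78), and 19 of 43 higher in cluster 3 (1.41). Igtp, an interferon-induced GTPase, was at 115 and 73.8 CPM (0.64, not called), yet at a called 2.01 in cluster 3. Another luminal-like cluster, led by Igtp and related genes, held 60 of the Primary and 3 of the Dormant cells.

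**Figure D3:**
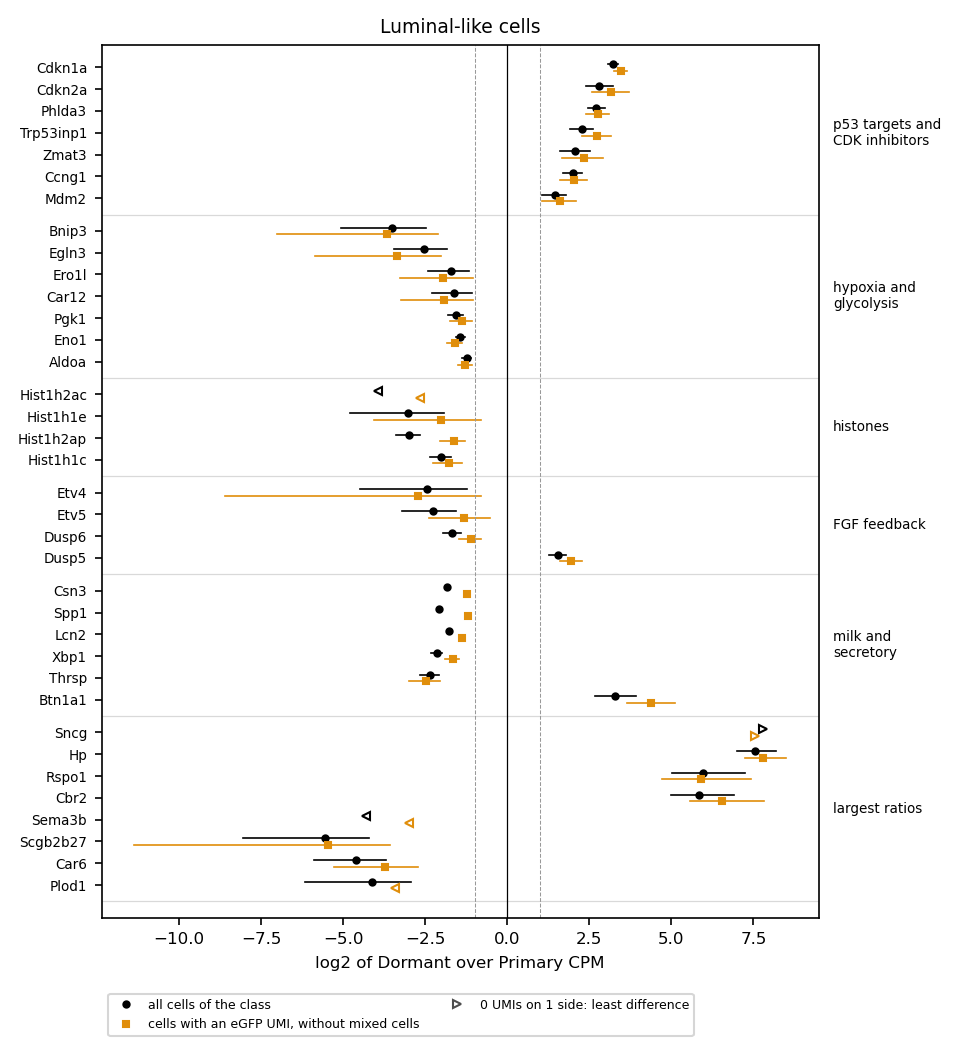
Log2 ratio of Dormant to Primary CPM in luminal-like cells for genes of 6 groups, with 95% counting intervals, for all cells and for eGFP cells without another lineage's genes; dashed lines mark 2-fold. Cdkn1a lies at 3.23 and 3.46 on the 2 sets, Bnip3 at -3.51 in all cells, and open triangles give the least difference for genes with 0 UMIs on 1 side.

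Basal-like cells of the libraries barely shared a cluster. Cluster 19, led by Ecrg4, Acta2 and Wif1, held 145 of the 155 Dormant and 5 of the 414 Primary cells, and cluster 11, led by Krt17, Krt42 and Id4, held 10 and 409. Both groups carried eGFP in most cells. Genes that define those clusters are described but support nothing, and the value within cluster 11, from its 10 Dormant cells, is given where it bears on a gene.

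Nearly all measured interferon-inducible GTPases were higher in residual basal-like cells. The guanylate-binding proteins (Gbp) and immunity-related GTPases (Irgm, Igtp, Iigp1, Tgtp) are induced by interferon gamma and coat the membranes of vacuoles that hold microbes. Of 11 measured members 10 were higher and none lower, against 4.98% of all genes, with a median log2 ratio of 4.21 beside -0.26 for all genes. Without mixed cells it was 9 of 10 (median 4.19). The 250 bases before the gene start, taken from RefSeq for GRCm38.p6, are shown for 5 members on the strand of the gene, because the core of the interferon-stimulated response element (GAAA, any 2 bases, GAAA) was found there on 1 strand or the other in all 10 members that had a promoter in the table. It was found in 3.46% of all promoters of that length (936 of 27025). The 10 members with a promoter are not the same set as the 10 called ones. They include Gbp3, which was not called, and lack Iigp1 and Gbp4, which were. Capitals mark the bases covered by a match. Igtp lies at chr11:58199306-58199555 on the plus strand, Irgm2 at chr11:58214727-58214976 on the plus strand, Irgm1 at chr11:48871421-48871670 on the minus strand, Gbp2 at chr3:142620413-142620662 on the plus strand and Gbp7 at chr3:142530086-142530335 on the plus strand, each ending at the base before the gene start that the promoter table uses. In the gene annotation the Irgm2 model (chr11:58199618-58222782) begins before that start and overlaps Igtp (chr11:58199556-58207591) on the same strand. The Irgm1 model (chr11:48861968-48871683) covers its whole stretch, and the Gbp2 model (chr3:142620602-142638008) begins before the match shown. In Irgm1, Irgm2 and Gbp2 the match thus lies inside the annotated gene model.
Igtp: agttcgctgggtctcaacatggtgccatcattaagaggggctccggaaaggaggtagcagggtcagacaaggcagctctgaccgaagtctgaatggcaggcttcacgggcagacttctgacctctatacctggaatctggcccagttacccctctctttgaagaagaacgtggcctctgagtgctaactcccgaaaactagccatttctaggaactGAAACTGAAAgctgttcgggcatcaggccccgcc
Irgm2: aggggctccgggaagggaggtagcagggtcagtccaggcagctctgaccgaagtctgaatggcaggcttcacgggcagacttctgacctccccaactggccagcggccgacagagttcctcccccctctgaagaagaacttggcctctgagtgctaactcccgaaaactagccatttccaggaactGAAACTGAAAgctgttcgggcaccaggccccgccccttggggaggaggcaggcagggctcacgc
Irgm1: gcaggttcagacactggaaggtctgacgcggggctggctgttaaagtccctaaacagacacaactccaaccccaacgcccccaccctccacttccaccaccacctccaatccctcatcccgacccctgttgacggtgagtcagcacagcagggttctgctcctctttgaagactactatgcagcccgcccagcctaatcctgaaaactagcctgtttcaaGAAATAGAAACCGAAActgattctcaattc
Gbp2: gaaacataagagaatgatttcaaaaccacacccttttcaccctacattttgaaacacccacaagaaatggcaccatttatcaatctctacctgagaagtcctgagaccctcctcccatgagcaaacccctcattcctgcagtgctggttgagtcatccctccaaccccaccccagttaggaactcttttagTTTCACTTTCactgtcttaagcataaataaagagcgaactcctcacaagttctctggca
Gbp7: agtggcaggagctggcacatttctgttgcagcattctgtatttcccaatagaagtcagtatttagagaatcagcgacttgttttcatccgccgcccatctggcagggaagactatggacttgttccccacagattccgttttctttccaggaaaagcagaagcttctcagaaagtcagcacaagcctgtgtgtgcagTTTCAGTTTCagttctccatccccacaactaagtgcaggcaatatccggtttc
The capitals begin 34 bases before the start that the promoter table uses in Igtp, 64 in Irgm2, 30 in Irgm1, 59 in Gbp2 and 53 in Gbp7. In Irgm1 a pair of overlapping matches gives 1 run, and in Gbp2 and Gbp7 the match is on the opposite strand, so the letters read TTTCACTTTC and TTTCAGTTTC. A match describes the letters only and was not tested as a binding site. Of 38 interferon-stimulated genes with a promoter 19 (50%) held the element, as did 3 of 19 MHC class I and peptide-loading genes (15.8%).

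The levels of these genes were near 0 in Primary and clear in Dormant. Igtp gave 249 and 21 UMIs, 248 CPM (218 to 281) and 7.24 CPM (4.48 to 11.1), a log2 ratio of 5.07 (4.46 to 5.82). After thinning to 1000 UMIs, 17.6% of Dormant and 0.726% of Primary basal-like cells had an Igtp UMI, beside 2.75% and 0 of 50 NK-like cells. Iigp1 stood at 337 and 8.62 CPM (5.26, interval 4.70 to 5.94). Irgm2, which could share reads with Igtp where their models overlap, had 33 and 2 UMIs (5.28, interval 3.61 to 8.68), and Irgm1 had 26 and 3 (4.45, interval 2.94 to 7.02). The guanylate-binding proteins ran from Gbp2 at 145 and 8.62 CPM (4.05) through Gbp4 with 17 and 3 UMIs (3.85, interval 2.25 to 6.45) to Gbp7 at 55.9 and 11.4 CPM (2.29). Gbp3, at 23.9 and 6.90 CPM, had a ratio of 1.79 whose interval (0.88 to 2.73) reached below 2-fold. Tgtp1 (4.21) and Tgtp2 (4.60) are near-identical copies whose reads could have been shared, so each value is uncertain. Iigp1, Igtp and Gbp2 kept their call within cluster 11 (3.88, 3.92 and 3.88), and Gbp7 with 2 and 32 UMIs (1.94, interval -1.46 to 3.61) did not. Behind the calls of Iigp1, Igtp and Gbp2 were only 7, 6 and 7 Dormant UMIs, in 4, 3 and 4 cells. Irgm1, Irgm2, Tgtp1, Tgtp2 and Gbp4 had under 20 UMIs in that cluster and could not be called there.

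Most measured genes of MHC class I antigen presentation were higher in the same cells. Of 17 class I and peptide-loading genes 14 were higher and none lower (median 1.76), and 14 of 16 without mixed cells (1.80). Among all genes of the class 4.98% were higher and 3.48% lower. The class I heavy chains H2-D1 and H2-K1 stood at 5459 and 1621 CPM (1.75, interval 1.70 to 1.81) and at 3618 and 1229 CPM (1.56). Their light chain B2m was at 7472 and 3320 CPM (1.17). Tap1, a subunit of the peptide transporter, was at 160 and 38.3 CPM (2.06), and the immunoproteasome subunit Psmb10 at 97.8 and 25.2 CPM (1.96). Nlrc5, the transactivator of class I genes, was at 39.9 and 9.65 CPM (2.04). The heavy chains, B2m and Tap1 missed the call in the 10 cells of cluster 11, at 0.95, 0.86, 0.76 and 2.09. Psmb10 (1.65) and Nlrc5 (0 and 28 UMIs) missed it there as well. Of 38 interferon-stimulated genes 22 were higher and none lower (median 2.12), and 22 of 33 without mixed cells. For 9 of the 38 another Dormant class held over 5 times the level. Irf1, a factor that mediates interferon gamma responses, was at 152 and 27.2 CPM (2.47). Cxcl10, an interferon-induced chemokine for T and NK cells, was at 129 and 4.48 CPM (4.79). Within cluster 11 Irf1 missed the call (2.05) and Cxcl10 had 0 and 13 UMIs, too few for one. T cell genes marked 14.8% of Dormant and 1.21% of Primary basal-like cells, and the counts above without those cells are close to the counts with them.

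Contractile genes were higher and several keratins lower over the class, and part of both differences was not seen within cluster 11. Of 24 myoepithelial genes 11 were higher and none lower (median 0.91), but the median within cluster 11 was -0.64. The shares of all genes over the class were 4.98% higher and 3.48% lower. Acta2, Mylk and Cnn1 are among the genes that lead cluster 19, and Krt17 and Krt42 among those that lead cluster 11. Acta2, Mylk, Cnn1, Myh11, Krt5, Krt14 and Krt17 are also markers by which the class was named. The class values of these genes, and of lists that hold them, are therefore a description. Myh11, smooth muscle myosin, was at 170 and 7.93 CPM (4.39, interval 3.79 to 5.11), Cnn1, or calponin, at 300 and 28.6 CPM (3.38), and Mylk, myosin light chain kinase, at 397 and 37.9 CPM (3.38). Acta2, smooth muscle actin, was at 2624 and 915 CPM (1.52) over all cells and had 1 and 2430 UMIs within cluster 11, where it was lower (-5.02, interval -10.91 to -3.13). Cnn1 had 0 and 63 UMIs there and Mylk 0 and 99, and neither was called. Of 16 keratins 2 were higher and 7 lower (median -1.34). Krt90 had 0 and 438 UMIs, at least 50.5-fold lower, and Krt42, a hair-associated keratin, 5 and 1051 UMIs (-6.05). Krt79, a keratin of the hair canal, was at 8.98 and 149 CPM (-3.98), Krt15, a stem cell keratin of stratified epithelia, at 33.9 and 120 CPM (-1.80) and Krt17, a keratin of stressed epithelium, at 311 and 792 CPM (-1.34). Within cluster 11 Krt90 (0 and 438 UMIs) and Krt42 (2 and 1051, -3.07, interval -6.44 to -1.54) were still lower, Krt79 (-0.95) and Krt15 (-0.32) missed the call and Krt17 turned to 0.30. Krt14, the basal keratin, was higher at 730 against 318 CPM (1.20, and 1.92 within cluster 11), while its partner Krt5 was at 301 and 191 CPM (0.66, not called).

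Some heat shock and immediate early genes were higher in basal-like cells. Of 45 heat shock and co-chaperone genes 16 were higher and none lower (median 0.67), against 4.98% and 3.48% of all genes, and 16 of 44 without mixed cells. Hsp90aa1 was at 1741 and 293 CPM (2.57), Hspb1, a small heat shock protein, at 3473 and 814 CPM (2.09), and Bag3, a co-chaperone of HSP70, at 200 and 19.0 CPM (3.39). Hspa1b, an inducible HSP70, was at 387 and 61.7 CPM (2.65), but its near-identical copy Hspa1a makes the split between them uncertain. Within cluster 11 none of these 4 kept the call, at 1.36, 1.18, 2.31 and 1.55. The 250 bases before Hspa1b, at chr17:34959239-34959488 on the minus strand, are shown because they hold the heat shock element searched for, GAANNTTC, in capitals.
Hspa1b: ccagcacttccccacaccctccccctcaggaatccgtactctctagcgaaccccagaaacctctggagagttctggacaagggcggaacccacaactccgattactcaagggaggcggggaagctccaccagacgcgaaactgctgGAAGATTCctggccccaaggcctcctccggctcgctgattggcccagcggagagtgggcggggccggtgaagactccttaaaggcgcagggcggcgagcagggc
That element was found in 10 of 54 promoters of the heat shock list (18.5%) and in 7.73% of all promoters. Of 28 immediate early and AP-1 genes 10 were higher and 1 lower (median 0.45). Nr4a3, an orphan nuclear receptor induced within minutes of a stimulus, was at 122 and 2.07 CPM (5.77), Fosl1, an AP-1 subunit, at 85.8 and 6.90 CPM (3.61), and Maff, a small MAF factor, at 416 and 47.2 CPM (3.13). Within cluster 11 Fosl1 kept the call (4 and 20 UMIs, 3.45), but all 4 Dormant UMIs came from 1 cell. Maff did not keep it there (1.45) and Nr4a3 had under 20 UMIs. The AP-1 element TGANTCA was found on either strand in 1 of 23 promoters of that list (4.35%) and in 7.82% of all promoters. Tissue dissociation also induces these genes and both tissues were dissociated, so a share from handling cannot be told apart from the condition.

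Part of the proliferation genes were lower. Of 25 G2/M genes 12 were lower and none higher, against 3.48% of all genes lower, with a median log2 ratio of -3.22 (-2.05 with genes at 0 set to their least difference). Without mixed cells 2 of 13 measured members were lower, so most of these calls were not made without them. Cdk1, the mitotic kinase, had 2 and 87 UMIs (-3.60, interval -6.98 to -2.01), and Cenpf, a kinetochore protein, 0 and 76, at least 8.76-fold lower. Cdk1 missed the call without mixed cells (1 and 25 UMIs, -2.61, interval -8.53 to -0.56). Hist1h2ap was at 14.0 and 309 CPM (-4.42) and Hist1h1c at 44.9 and 376 CPM (-3.05), and both kept the call without mixed cells (-4.35 and -3.13) and within cluster 11 (-3.58 and -2.28). Ccnd1, cyclin D1, was at 89.8 and 445 CPM (-2.30, and -0.84 within cluster 11, not called). Etv4 was at 28.9 and 218 CPM (-2.89), and was lower within cluster 11 too (1 and 631 UMIs, -3.08, interval -8.97 to -1.18). Cdkn1a, at 239 and 129 CPM, had a ratio of 0.89 (interval 0.65 to 1.13) and was not called. Within cluster 11 it had 5 and 370 UMIs (-0.43, interval -2.20 to 0.67, not called). Of 20 p53 targets 1 was higher and 2 lower, against 4.98% and 3.48% of all genes. The Cdkn1a ratio in luminal-like cells was 3.23. The intervals cover counting error only, and whether the 2 classes differed in Cdkn1a was not tested.

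Other genes with large differences in basal-like cells are given singly. Apod, a lipid-binding lipocalin, was at 382 and 7.93 CPM (5.56), Igfbp3, an IGF-binding protein, at 69.8 and 1.03 CPM (5.86, interval 4.47 to 8.39) and Igfbp5 at 2083 and 345 CPM (2.59). Apod kept the call within cluster 11 (63 and 21 UMIs, 7.20), with its Dormant UMIs in 5 cells, and Igfbp5 did not (0.59). Apod is also among the genes that lead a fibroblast-like cluster of 120 Dormant and 0 Primary cells. Fam228b had a ratio of 6.18 and Pdlim3, a PDZ and LIM protein of muscle, one of 5.96. Igfbp3, Fam228b and Pdlim3 had under 20 UMIs within cluster 11, too few for a call there. Postn and Mmp2, matrix genes that fibroblasts also make, had ratios of 4.85 and 4.40. Within cluster 11 Mmp2 missed the call (3 and 30 UMIs, 2.52, interval -0.04 to 4.00) and Postn had under 20 UMIs. In the same cells the summed level of 8 fibroblast markers was 695 CPM in Dormant and 4.48 in Primary, with 5 of 8 higher and 2 of 8 at 0 in Primary. Fibroblast-like cells were 285 of the Dormant and 3 of the Primary cells, and their part in the ratios of Postn, Mmp2 and Apod was not tested. On the lower side Lmo2, a LIM adaptor, had 1 and 456 UMIs (-6.72, interval -12.61 to -4.81), and Ngfr, the low-affinity neurotrophin receptor, 2 and 534 (-6.21, interval -9.58 to -4.67). Csrp2, a LIM protein of smooth muscle, had 13 and 1769 UMIs (-5.50). The cytokine Tslp had 0 and 146 UMIs, at least 16.8-fold lower, and Cytl1, a secreted cytokine-like protein, 0 and 280, at least 32.3-fold lower. Within cluster 11 Tslp and Cytl1 missed the call, while Lmo2, Ngfr and Csrp2 kept it. Lgals7, an epidermal galectin, was at 205 and 3820 CPM (-4.21), but at -1.0 and not called within cluster 11. Cxcl12, the ligand of CXCR4, was at 69.8 and 228 CPM (-1.70) and at 0 and 641 UMIs within cluster 11.

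**Figure D4:**
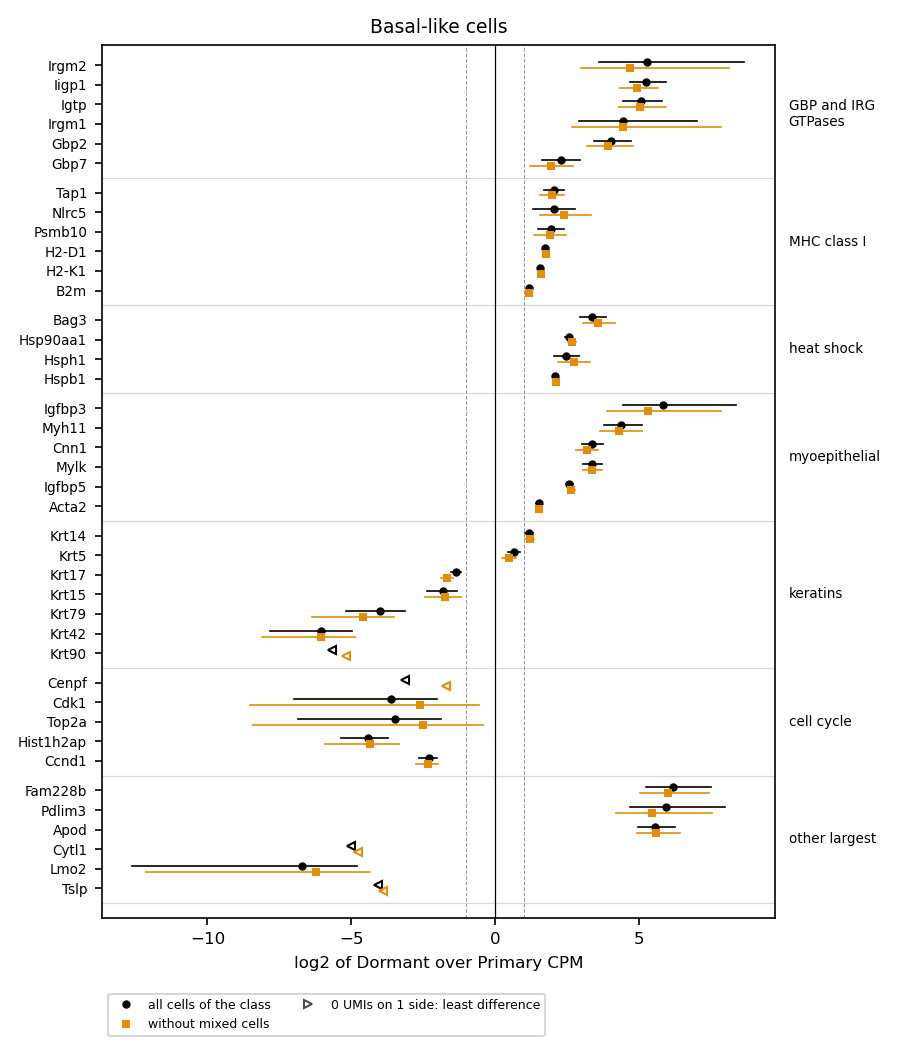
Log2 ratio of Dormant to Primary CPM in basal-like cells for genes of 7 groups, with 95% counting intervals, for all cells and without cells that carried another lineage's genes; dashed lines mark 2-fold. The 6 interferon-inducible GTPases lie between 2.29 and 5.28 and the keratins from -6.05 (Krt42) to 1.20 (Krt14), and open triangles give the least difference for genes with 0 UMIs on 1 side.

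Macrophage- or monocyte-like cells also came from different clusters. Cluster 4, pooled from several parts, held 152 of 205 Dormant and 50 of 1239 Primary cells. Its largest part, led by Pf4, F10 and Ifitm6, held 133 and 28 of them. A part with Retnla and Ccl24 among its leaders held 8 and 8, and a part with Cbr2, Mrc1 and Folr2 among its leaders 3 and 9. Values within cluster 4 can thus still differ with its make-up, which was not tested. Cluster 2, led by Il1a, Il1b and Ccl4, held 42 and 641, cluster 8, led by Mmp12, Hmox1 and Arg1, 9 and 481, and a cycling cluster 0 and 61. Over the whole class 14 of 23 monocyte genes were higher and none lower (median 1.77), against 3.74% of all genes. Within cluster 4, where 1.94% of 3962 genes were higher and 0.606% lower, it was 2 of 21 (median 0.23). With equal weight of cluster 2 and the largest part of cluster 4 (133 Dormant and 28 Primary cells) the median was -0.30. C-type lectins, pattern receptors of myeloid cells, gave 7 of 13 higher over the class (1.64) and 0 of 10 within cluster 4 (0.36). Plac8, a lysosomal protein of monocytes, was at 817 and 22.1 CPM (5.20) and at 0.69, not called, within cluster 4. Clec4b1 (3.01) and Clec10a (2.76) were at 0.74 and 1.10 there, and Clec4a1 (1.72) at -0.23. Ly6c2, a monocyte antigen, was called in cluster 4 (2.37), and Plac8 was at a called 5.02 within cluster 2. Among chemokines Ccl24, an eotaxin, had a ratio of 2.43 over the class and -2.38 within cluster 4 (called lower). The cluster 4 value came from 27 and 54 UMIs in 9 and 6 cells. Within cluster 2 Ccl24 was at 7.34 (39 and 3 UMIs, interval 5.89 to 9.89, called higher). Ccl7, a monocyte attractant, went from 2.38 to -0.96 within cluster 4.

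Some genes were called within both shared clusters and others within 1 of them. Ly6i and Ly6a, GPI-anchored proteins that interferon induces, stood at 115 and 2.70 CPM (5.39) and at 415 and 34.9 CPM (3.57). Ly6i was at 2.51 (interval 1.25 to 4.59) in cluster 4 and 5.47 in cluster 2, and Ly6a at 5.03 (301 and 3 UMIs, interval 3.69 to 7.54) and 3.05, all called. Cxcl1, a neutrophil chemokine, was lower at 191 against 1233 CPM (-2.69), with -1.96 in cluster 4 and -2.67 in cluster 2. Il1a, which encodes interleukin 1 alpha, was at 21.5 and 578 CPM (-4.71), with -3.97 in cluster 2 and 3 and 14 UMIs in cluster 4, too few for a call. Il1a and Cd83 are among the genes that lead cluster 2. Ccl7, Ccl24, Ly6c2, Clec4b1, Clec10a and Clec4a1 are among those that lead parts of cluster 4. The class values of all these genes, and of the lists that hold them, are therefore a description. Gpr34, a lysophospholipid receptor of macrophages and microglia, had a ratio of -4.08, with 2 and 445 UMIs in cluster 2 (-3.63, interval -7.00 to -2.09) and too few for a call in cluster 4 (1 and 9). Cd81, a tetraspanin (155 and 779 CPM, -2.33), Cd83, an activation marker (159 and 757 CPM, -2.25), and Nfkbiz, an atypical inhibitor of NF-kappaB (-1.95), were lower in cluster 4 (-1.99, -1.78 and -1.66) and in cluster 2 (-1.68, -2.27 and -2.41). Ctsl, a lysosomal cathepsin, was higher over the class (2.82) and in cluster 4 (3.33) but not called in cluster 2 (0.52). Irf7, the factor that amplifies type I interferon, was at 3.41 in cluster 4 and at -1.92 in cluster 2, called in opposite directions. Of 48 interferon-stimulated genes 11 were higher over the class (median 0.75) and 7 of 29 within cluster 4 (1.49). Heat shock genes were called higher in 9 of 44 cases over the class and in 6 of 27 within cluster 4, with none lower in either. The shares of all genes that were higher were 3.74% over the class and 1.94% within cluster 4. Hspa1a was at 988 and 276 CPM (1.84), Hsp90aa1 at 784 and 233 CPM (1.75) and Dnajb1, an HSP40, at 238 and 70.7 CPM (1.75), and all were higher in cluster 4 (2.80, 2.06 and 2.02) and in cluster 2 (2.23, 1.89 and 1.81).

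T-like cells fell into clusters 5 (led by Cd8b1, 765 Dormant and 152 Primary cells), 10 (led by Tnfrsf4 and Izumo1r, 358 and 137), 12 (led by Ccl5 and Pdcd1, 137 and 179) and 14 (led by Gzmb and Gzmc, 2 and 194). Gzmc, a granzyme, had 0 and 905 UMIs over the class, at least 627-fold lower, and 11.3% of thinned Primary cells had a UMI. Gzmb was at 111 and 1018 CPM (-3.19) over the class, but at -2.12 in cluster 10 and 2.24 in cluster 12, called in opposite directions, and at 0.70 in cluster 5. Cytotoxicity genes accordingly gave 3 higher and 5 lower of 21 (median -0.41), against 2.34% and 2.27% of all genes. Killer lectin-like receptors gave 0 higher and 4 lower of 17 (median -0.72), while equal weight of clusters 5, 10 and 12 turned the median to 0.80. Of 19 naive and circulating T genes 8 were higher and 2 lower (median 1.26), but within clusters 5, 10 and 12 the counts were 1 and 1, 0 and 2, and 1 and 1. The backgrounds there were 1.34% higher and 1.26% lower in cluster 5, 0.774% and 0.925% in cluster 10, and 1.59% and 1.05% in cluster 12. Cd27, a co-stimulatory receptor of the TNF receptor family, was at 332 and 95.4 CPM (1.80), with 1.65 (called) in cluster 5 and 1.04 and 0.93 (not called) in the others. Satb1, a chromatin organiser of T cells (1.73), was called in cluster 12 (26 and 1 UMIs, 3.61, interval 1.57 to 9.53) and not in clusters 5 (1.11) and 10 (63 and 2 UMIs, 2.08, interval 0.48 to 5.47). Bcl2, the survival factor, was lower (-1.53), with -1.43 and -2.43 called in clusters 5 and 12 and 0.98 (interval 0.18 to 2.02, not called) in cluster 10. Ccl5, Cd27, Gzmb and Gzmc are among the genes that lead clusters of this class, so their class values are a description.

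A small set of T cell genes differed in each of clusters 5, 10 and 12. Hsph1, an HSP110 chaperone, was at 123 and 21.1 CPM (2.53), with 2.95, 2.17 and 2.42 in the clusters in that order. After thinning 10.5% of Dormant and 1.65% of Primary T-like cells had a Hsph1 UMI. Hsp90aa1 was at 869 and 250 CPM (1.79), with 2.07, 2.51 and 1.96. Ccl5, the chemokine RANTES of effector lymphocytes, was at 9556 and 2925 CPM (1.71), with 2.31, 1.61 and 1.67. Hist1h1c was lower at 32.6 against 194 CPM (-2.56), with -1.98, -2.68 and -2.93. All of these passed 2-fold in every one of the 3 clusters. Heat shock genes were higher in 5 of 44 cases over the class and in 6 of 38, 6 of 36 and 5 of 28 in the clusters, with 1 lower in cluster 5. That 1 was Hspa1a, at 208 and 282 CPM over the class (-0.44, not called) and -1.65 in cluster 5. Of 35 histone genes 11 were lower and none higher (median -1.34), but within the clusters the counts lower were 4, 1 and 4. Beside both lists, 2.34% of all genes were higher and 2.27% lower over the class. In the clusters 1.34%, 0.774% and 1.59% were higher and 1.26%, 0.925% and 1.05% lower. Ifng, interferon gamma, was at 98.8 and 21.1 CPM (2.21), called in cluster 10 (2.45) and not in clusters 5 (1.32) and 12 (1.18). Impact, a regulator of the GCN2 stress kinase, was at 91.2 and 12.9 CPM (2.79), with 2.38 and 2.54 called in clusters 5 and 12 and 2.15 not called in cluster 10. Ramp3, a calcitonin receptor partner, was at 157 and 20.5 CPM (2.92), called in cluster 10 (2.55), not in cluster 5 (1.43), and with 17 and 0 UMIs too few to call in cluster 12.

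**Figure D5:**
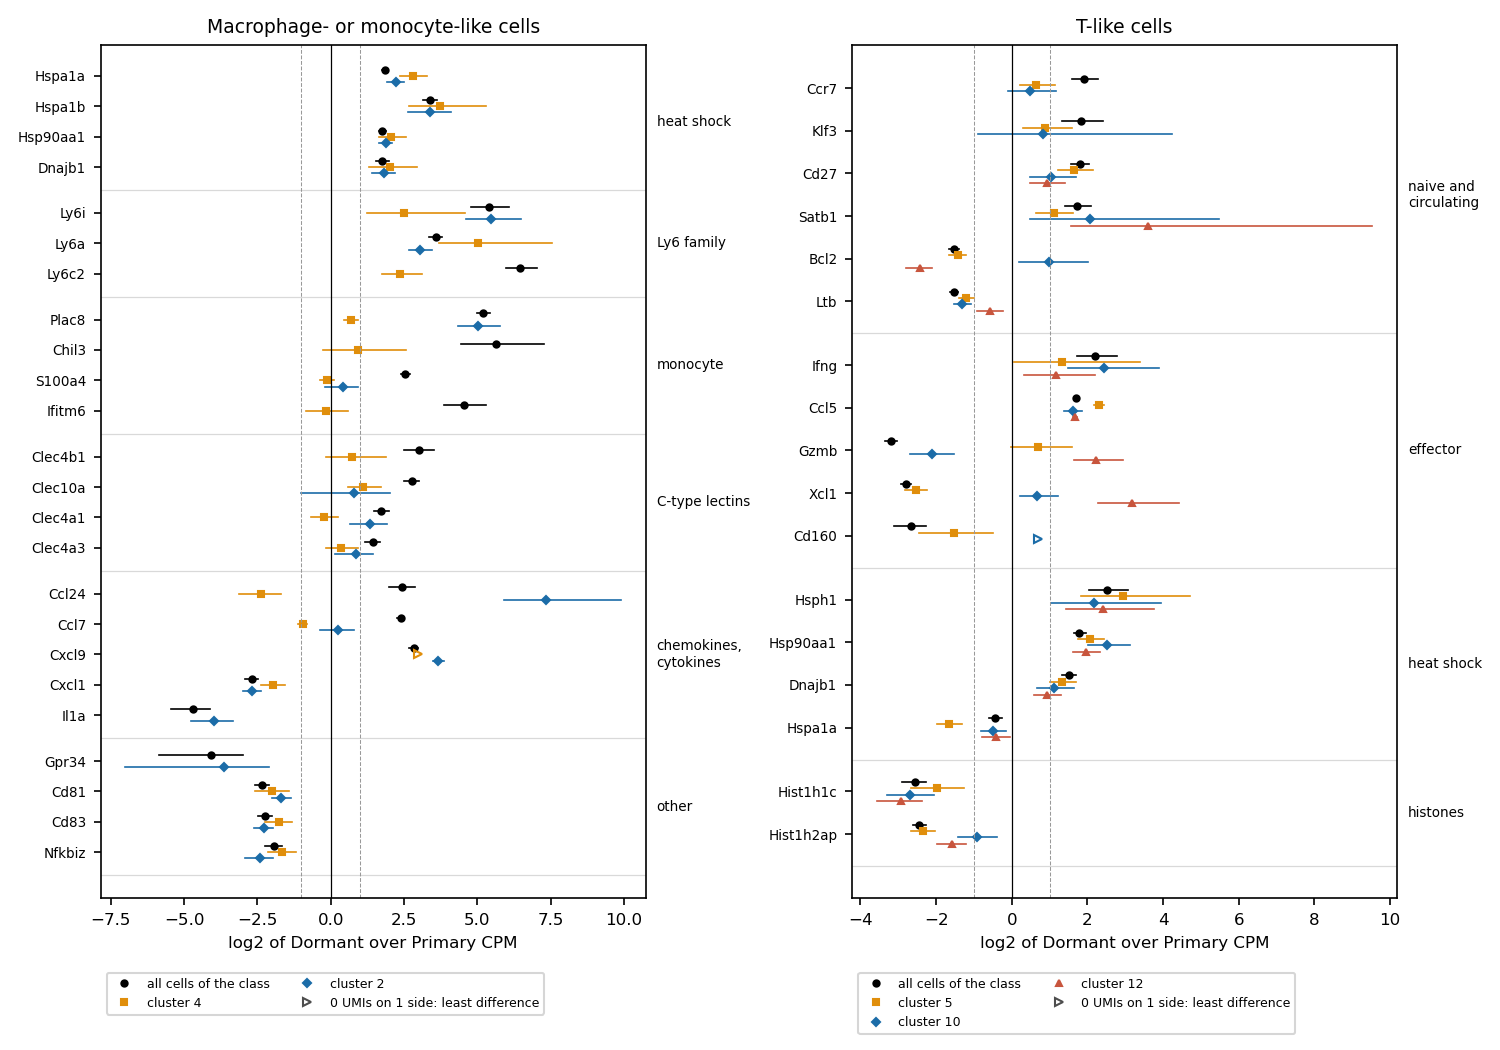
Log2 ratio of Dormant to Primary CPM with 95% counting intervals for genes of macrophage- or monocyte-like cells (whole class, clusters 4 and 2) and of T-like cells (whole class, clusters 5, 10 and 12); dashed lines mark 2-fold and clusters with under 20 UMIs of a gene are not drawn. Plac8 lies at 5.20 over the class and 0.69 in cluster 4, while Hsp90aa1 in T-like cells lies between 1.79 and 2.51 throughout.

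Calls in dendritic-like cells depended on mixed cells. Without the 49 mixed Dormant and 6 mixed Primary cells the genes called higher went from 152 of 5621 to 82 of 4254 (1.93%). Icos, a T cell co-stimulator, had 72 Dormant UMIs with them and 6 without, and Rora, a T cell and innate lymphocyte factor, 62 and 8, with 0 in Primary throughout, so neither was called without mixed cells. Genes that stayed past 2-fold included Hspa1b (338 and 23.8 CPM, 3.77, and 3.78 without mixed cells), Hsp90aa1 (887 and 231 CPM, 1.93 and 1.98) and Hilpda, a lipid droplet protein (170 and 13 CPM, 3.60 and 3.72). Vps37b, an ESCRT subunit, was at 492 and 49.7 CPM (3.28 and 2.84) and Cdkn1a at 343 and 123 CPM (1.46 and 1.60). Of the 35 lower genes 4 are named here. Cd207, which encodes langerin, was at 35.7 and 402 CPM (-3.48, and -3.33 without mixed cells), and Xcr1, the chemokine receptor of cross-presenting dendritic cells, at 69.7 and 298 CPM (-2.09 in both). The chemokines Ccl17 (-2.42 and -2.0) and Ccl22 (-1.50 and -2.17), made by mature dendritic cells, were lower too. Xcr1 and Ccl22 are among the genes that lead clusters of this class, so their class values are a description. The class was made of 3 clusters with 86, 38 and 27 Dormant and 48, 11 and 11 Primary cells.

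NK-like cells formed 1 cluster and had the least depth, with 53 Primary cells and 153966 Primary UMIs. Hsp90aa1 was at 881 and 130 CPM (2.73, and 2.70 without mixed cells) and Mcl1, a survival factor of the BCL2 family, at 355 and 3 UMIs (3.38, interval 2.04 to 5.89, and 3.12 without mixed cells). Tob2 had 299 and 3 UMIs (3.13, interval 1.79 to 5.64), and 296 and 1 without mixed cells (4.10, interval 2.19 to 9.99). Nr4a2, an orphan nuclear receptor, was at 534 and 97.4 CPM (2.41 and 2.25) and Ccl5 at 8490 and 1617 CPM (2.39 and 2.29). Cd27 was at 294 and 45.5 CPM (2.6 and 2.80). Genes without a Primary UMI were bounded: Safb2, a nuclear matrix protein, had 106 Dormant UMIs, at least 3.62-fold higher, and Abcb9, a peptide transporter of the lysosome, 92, at least 3.15-fold higher. Lower genes were Thy1, the CD90 antigen (93.9 and 383 CPM, -2.04), Cd226, the activating receptor DNAM-1 (-2.04), Capg, an actin-capping protein (77.3 and 318 CPM, -2.05), and Hist1h1c (35.3 and 266 CPM, -2.92), each also past 2-fold without mixed cells. Gzmc had a ratio of -3.03 with mixed cells and -0.82, not called, without them.

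A few genes, picked after their values were seen, can be set side by side across the classes. Hsp90aa1 was higher in all 6, with ratios of 1.43 in luminal-like, 2.57 in basal-like, 1.75 in macrophage- or monocyte-like, 1.93 in dendritic-like, 1.79 in T-like and 2.73 in NK-like cells. Hist1h1c was lower in luminal-like (-2.03), basal-like (-3.05), T-like (-2.56) and NK-like (-2.92) cells. Ratios of Hist1h1c in macrophage- or monocyte-like and dendritic-like cells are not given here. Cdkn1a was called higher in luminal-like (3.23) and dendritic-like (1.46) cells and not in basal-like cells (0.89). Its ratios in macrophage- or monocyte-like, T-like and NK-like cells are not given here, so a difference limited to the named classes is not shown. After thinning, 15.6% of Dormant and 0 of 50 Primary NK-like cells had a Cdkn1a UMI. Hspa1a was higher in luminal-like (1.19), basal-like (1.61), macrophage- or monocyte-like (1.84) and dendritic-like (1.53) cells, and lay at -0.44 in T-like and -0.92 in NK-like cells. All classes of a library share 1 dissociation, freezing and sort, so a handling difference between the libraries cannot be told apart from the condition in any of these values. Class median UMIs per cell were 9289 and 5601 in luminal-like, 5384 and 6270 in basal-like, 3972 and 7339 in macrophage- or monocyte-like and 2304 and 1913 in T-like cells.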

How the data were processed

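The series profiled single cells of mouse mammary tumour stages by 3′ droplet RNA sequencing. Per the submitters' processing notes, reads were processed with Cell Ranger 3.1.0 and FastQC against mm10. The authors deposited whole-number UMI counts per gene and cell, unnormalized per the file's values, in 1 table for 4 stage libraries. Here a cell was kept if it had 500 UMIs and 200 genes or more, with mitochondrial genes giving no more than 20% of its UMIs. Predicted doublets were taken out as the highest Scrublet scores, 0.8% per 1000 cells, because the tool's own threshold called 0 Dormant and 53 Primary cells. The 4 libraries were clustered together (scanpy 1.11.5, leidenalg 0.10.2; 2000 variable genes, 30 principal components, 15 neighbours), and clusters were named from marker lists. Counts were summed per class and library and divided by the class total (CPM). Genes with at least 20 UMIs over both libraries were compared by an exact conditional Poisson interval of the ratio (95%, scipy 1.17.1), with a prior count of 0.5 in the printed log2 ratio, and were called where the whole interval passed 2-fold. A count of 0 was bounded by 3 UMIs. With 1 library per group there is no test over replicates. Named genes were the 15 (epithelial, macrophage and T classes) or 8 with the largest ratio in each direction among called genes with at least 50 CPM and 10 cells on the higher side, at most 20% of UMIs in 1 cell and no other class of that library over 5 times higher. Predicted, mitochondrial, ribosomal protein, haemoglobin and immune receptor genes, class markers and the 10 leading genes of the clusters were outside that rule. Up to 4 members with the largest ratio of each list could also be named, and all other genes in the text were named after their values were seen. Mixed cells carried at least 2 of 6 T cell genes, 3 of 6 macrophage genes or 3 of 7 epithelial genes outside the matching classes, and leaving them out, like the values within single clusters, was chosen after seeing the data. All members and gene lists were chosen with earlier results of these data known. Promoters were read from RefSeq, GRCm38.p6, and matched by symbol.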

Additional observations from a re-analysis of the deposited data

How the results depend on the processing

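No paired analysis was possible because each group had 1 library, and for the same reason no replicate could be left out. Leaving out mixed cells and restricting to shared clusters were chosen after seeing the data. The cause was not tested for any change below, other than the fewer UMIs or genes that thinning and higher minimums leave by construction. For the NK-like counts at equal weight of clusters the source is stated below. Thinning every cell to 1000 UMIs left 78 genes higher and 36 lower in luminal-like, 135 and 78 in basal-like, 117 and 57 in macrophage- or monocyte-like, 20 and 7 in dendritic-like, 84 and 107 in T-like and 22 and 10 in NK-like cells. With a minimum of 100 UMIs per gene the counts were 191 higher in luminal-like cells, 229 higher and 195 lower in basal-like, 200 higher in macrophage- or monocyte-like, 67 and 16 in dendritic-like, 124 and 112 in T-like cells and 7 lower in NK-like cells. With a minimum of 5 UMIs, 639 were higher in luminal-like and 51 lower in NK-like cells. With the clusters that both libraries share given equal weight the counts were 136 higher and 24 lower in basal-like, 58 and 52 in macrophage- or monocyte-like, 42 higher in dendritic-like, 65 and 72 in T-like and 40 and 50 in NK-like cells. This setting used a normal approximation of the interval in place of the exact one. Basal-like and NK-like cells had 1 shared cluster each, so nothing was reweighted in them. The basal-like counts are those within cluster 11. The NK-like counts differ from the main ones only by the form of the interval. Clustering Dormant and Primary alone gave 104 and 97 in T-like and 95 and 80 in NK-like cells. Without mixed cells 82 were higher in dendritic-like and 41 in NK-like cells. Scaling without mitochondrial, ribosomal protein and haemoglobin genes gave 41 higher and 49 lower in NK-like cells. With doublets kept 260 were higher in luminal-like cells. In basal-like cells 180 genes were lower with a gate on fixed markers and 189 with TMM factors.

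Shares of cells moved with the cell definition. A gate on fixed markers in place of clusters gave luminal-like shares of 4.86% in Dormant and 44.0% in Primary, basal-like 3.79% and 3.11% (the reverse of the order by clusters), dendritic-like 1.41% and 0.479% and T-like 45.9% and 14.4%. It also gave 7.52% NK-like, 5.46% plasma-like and 4.77% plasmacytoid dendritic-like cells in Dormant and 31.9% macrophage- or monocyte-like cells in Primary. With the libraries clustered alone, luminal-like cells were 4.04% and 29.8%, macrophage- or monocyte-like cells 4.17% and 27.6% and T-like cells 10.9% of Primary. With doublets kept, luminal-like cells were 2.29% and 25.3% and NK-like cells 0.855% of Primary, and at a clustering resolution of 2 NK-like cells were 0.838%. With limits of 1000 UMIs, 500 genes and 10% mitochondrial UMIs the Primary shares were 37.1% luminal-like, 32.9% macrophage- or monocyte-like and 14.5% T-like, and plasma-like cells were 4.06% of Dormant.

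Signs turned mainly where shared clusters had equal weight. The medians became -0.64 for myoepithelial genes in basal-like cells, and -0.30 for monocyte genes, -0.071 for C-type lectins, -0.36 for chemokines, -0.053 for interferon-induced transmembrane and Ifi genes and 0.14 for G2/M genes in macrophage- or monocyte-like cells. In T-like cells they became 0.80 for killer lectin-like receptors and -0.25 for the TNF superfamily. In basal-like cells the log2 ratios became -5.02 for Acta2, -0.43 for Cdkn1a, -1.35 for Cnn1, -0.45 for Dnajb1, -1.18 for Dll1, -0.031 for Impact, 0.30 for Krt17, -2.0 for Mylk and -0.19 for Nlrc5. Those basal-like ratios, like the myoepithelial median, are the values within cluster 11, the only cluster shared there. In macrophage- or monocyte-like cells they became -1.58 for Ccl24, -1.62 for Ccl7, -0.0063 for Chil3, -0.53 for Clec4a1, -0.33 for Clec4a3, -0.97 for Ifitm6, -0.43 for Plac8, -0.62 for S100a4 and -0.11 for S100a6, and in T-like cells 0.42 for Gzmb and 0.10 for Qpct. With the libraries clustered alone the medians became -0.26 for chemokines, 0.85 for killer lectin-like receptors and -0.0055 for the TNF superfamily, and the ratios -0.14 for Ctsl, -0.75 for Irf7, 0.029 for Gzmb and 0.47 for Qpct. Thinning gave -0.084 for the TNF superfamily, -0.27 for Krt5 and 0.11 for Car12, and the marker gate -0.18 for Krt5.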

Other observations

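Smaller gene groups of the macrophage- or monocyte-like class separated by cluster as well. All 5 measured Ly6 family genes were higher in Dormant over the class (median log2 ratio 3.57), against 3.74% of all genes higher and 1.16% lower, and 3 of 4 within cluster 4 (2.44), against 1.94% and 0.606%. S100 calcium-binding proteins were higher in 6 of 10 cases over the class (1.35) and in 1 of 8 within cluster 4 (0.15). Resident macrophage genes gave 6 of 17 higher and none lower over the class (1.06), against 1 higher and 2 lower of 13 within cluster 4 (-0.82). The part of cluster 4 with Cbr2, Mrc1 and Folr2 among its leaders held 3 Dormant and 9 Primary cells, and its share in that median was not tested. Chemokines gave 9 higher and 3 lower of 20 over the class (0.80) and 4 and 2 of 17 within cluster 4 (0.26). Cathepsins gave 3 higher and 1 lower of 13 (-0.76). Among 29 G2/M genes 4 were lower and none higher, and the cycling cluster of this class held 0 Dormant and 61 Primary cells.

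In basal-like cells, where 4.98% of all genes were higher and 3.48% lower, 6 of 7 MHC class II genes were higher (median 3.02), but for all 7 another Dormant class held over 5 times the level, and their source was not tested. Tubulins gave 5 higher and 1 lower of 16 (0.09), and core and linker histones 1 higher and 6 lower of 24 (-0.75). Mesenchymal transition genes gave 6 of 15 higher and none lower (1.05), and 6 of the 15 measured members were over 5-fold more abundant in another class. In luminal-like cells, where 3.85% were higher and 1.91% lower (3.27% and 1.96% within cluster 3), MHC class I and peptide-loading genes gave 2 of 20 higher (0.90) and 4 of 20 within cluster 3 (1.08), and Sox genes 2 of 8 lower (-1.18). Without mixed cells 1 of 19 of these MHC genes was higher over the class (0.75) and 2 of 18 within cluster 3 (0.77). TNF superfamily ligands and receptors gave 5 higher and 4 lower of 25 in T-like cells (0.61), where 2.34% were higher and 2.27% lower, with a median of -0.50 within cluster 5. Mitochondrial ribosomal proteins in NK-like cells gave no call in either direction among 68 (median -0.53), where 1.07% were higher and 0.554% lower.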
